A study of Canis lupus familiaris with 22 samples.

Results

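B cell and plasma cell genes were followed in the blood of healthy dogs and of dogs with canine atopic dermatitis (cAD) before and after allergen-specific immunotherapy (ASIT). The genes are *MS4A1*, *CD79A*, *CD79B*, *CD22*, *PAX5*, *BLK*, *BANK1*, *POU2AF1* and *XBP1*. A probe counted for a gene when the gene name in the array files equalled its symbol. Of the 9 genes, 8 had a probe, among 13459 gene names on the array that are no transcript, clone or locus identifier. *POU2AF1* had none.

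Client-owned adult dogs of various breeds were compared. The 8 healthy control dogs (ctrl) were blood donors. The 7 cAD patients were sensitised to mites and, in part, to pollen. Their blood was taken ahead of the therapy (0) and again once allergen extract had been injected under the skin for 6 months (6 months). Anti-inflammatory drugs had been withheld for some weeks before the allergy tests. The labels name the material as whole blood, while the methods name peripheral blood nuclear cells. Each of the 22 arrays carried the RNA of a dog in Cy5 and a common reference in Cy3, a pool of RNA from other healthy dogs. Values are log2 ratios of Cy5 to Cy3, so that 0 is the level of the reference and a difference of 1 is a doubling.

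B cells recognise antigen through a membrane immunoglobulin that signals through the CD79A and CD79B chains. Surface proteins such as CD22 and kinases such as BLK tune this signal, and PAX5 keeps the cell in the B lineage. On becoming a plasma cell, a B cell gives up much of this programme, and XBP1 expands the machinery that folds and secretes antibody. In allergy this lineage makes IgE, while immunotherapy is known for the rise of other allergen-specific antibody classes.

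The 8 genes were measured by 12 probes, and all 12 passed the signal filter, which asks for Cy5 well above background on 7 arrays or more. *XBP1* had 4 probes, *BANK1* had 2 and each other gene had 1. A gene was read from the probe well above background on the most arrays, or else the brightest. The probes of *MS4A1*, *CD79A*, *CD79B*, *BANK1* and *XBP1* were well above background on all 22 arrays. The probe of *CD22* was so on 8 of 8 arrays of ctrl, 7 of 7 before ASIT and 4 of 7 after it. For *PAX5* the counts were 8, 6 and 5, and for *BLK* they were 8, 4 and 4. The reference channel, Cy3, was not well above background on 4 of 7 arrays after ASIT for *CD22*, on 1 of 7 for *PAX5* and on 3 of 7 for *BLK*. No member value was saturated. The share of all probes with Cy5 well above background ran from 83.7% to 92.3% in ctrl (n = 8). On the 7 arrays taken before therapy it ran from 53.3% to 87.5%, and on the 7 taken after it from 57.2% to 81.6%. The ctrl arrays had slides and a scan day of their own, so both comparisons with ctrl cannot be told apart from slide and scan.

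The probe sequences of the 4 surface genes are shown because the change over ASIT rests on single probes here, as the files give them 5′ to 3′. On canFam3.1 the *MS4A1* probe lies at chr21:50732271-50732330 on the plus strand. The *CD79A* probe lies at chr1:112412925-112412984, the *CD79B* probe at chr9:11842758-11842817 and the *CD22* probe at chr1:117262516-117262575, all on the minus strand.
MS4A1: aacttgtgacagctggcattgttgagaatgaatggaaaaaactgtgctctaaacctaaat
CD79A: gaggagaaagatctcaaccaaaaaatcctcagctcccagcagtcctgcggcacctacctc
CD79B: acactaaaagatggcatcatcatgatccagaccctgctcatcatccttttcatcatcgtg
CD22: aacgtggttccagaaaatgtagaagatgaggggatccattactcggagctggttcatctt

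Across the 3 comparisons, limma called 0 of the 8 genes at an adjusted p under 0.05, in 24 gene tests, and 0 of 8 had an unadjusted p under 0.05 in any of them. Among all 38287 tested probes, limma called 0.0418% in 0 vs. ctrl, which asks how patients differ from healthy dogs, and 11.7% had an unadjusted p under 0.05. The shares were 0.0% and 7.2% in 6 months vs. ctrl, which asks whether treated patients still differ. They were 0.0% and 5.96% in 6 months vs. 0, the change over ASIT. The methods' one-way test likewise called 0 of 8 genes in each comparison, with 0 of 8 under 0.05 before adjustment. The groups overlapped for each of the 8 genes. Over all tested probes, groups that did not overlap made up 0.219% for 0 vs. ctrl, 0.11% for 6 months vs. ctrl and 0.0183% for 6 months vs. 0.

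The direction of the list was nonetheless uneven. Of all tested probes, 48.6% were lower in 6 months vs. 0, 56.4% in 6 months vs. ctrl and 52.4% in 0 vs. ctrl. The log2 difference of 6 months vs. 0 was below 0 for 7 of the 8 genes, with a median of -0.26 against 0.01 over all tested probes. That of 6 months vs. ctrl was below 0 for 7 of 8, with a median of -0.22 against -0.04. That of 0 vs. ctrl was below 0 for 5 of 8, with a median of -0.04 against -0.02, but this median turned to 0.05 after normexp and loess and to 0.03 in the Cy5 channel alone. With each array left out in turn, it ran from -0.10 to 0.10. The median of 6 months vs. 0 was -0.10 after normexp and loess, -0.13 in Cy5 alone and -0.14 with the slide as a fixed block. Within dogs, the median per array of the 8 genes changed by -0.77 to 0.01 and was lower after ASIT in 5 of 7 dogs. The SD of this median within groups was 0.35. The median of 6 months vs. ctrl was -0.07 after normexp and loess and -0.08 in Cy5 alone. Both comparisons with ctrl share the ctrl arrays. In bulk blood, fewer B cells and less RNA per B cell cannot be told apart.

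Within dogs, 8 paired tests were run, and the smallest exact sign-flip p that 7 pairs allow is 0.0156. After ASIT, 3 of the 8 genes were lower in at least 6 of 7 dogs, namely *MS4A1*, *CD79A* and, with ratios near background in 5 of 7 dogs, *CD22*, beside 6.84% of all tested probes. None of the 8 genes was higher in at least 6 dogs, beside 6.33% of all probes. An exact sign-flip p under 0.05 was found for 2 of the 8 genes, beside 5.46% of all probes. With the dog as a block, limma called 0 of 8 genes and 0.0% of all probes, and 1 of 8 genes and 6.56% of all probes had an unadjusted p under 0.05. This gene was *MS4A1*.

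**Figure D1:**
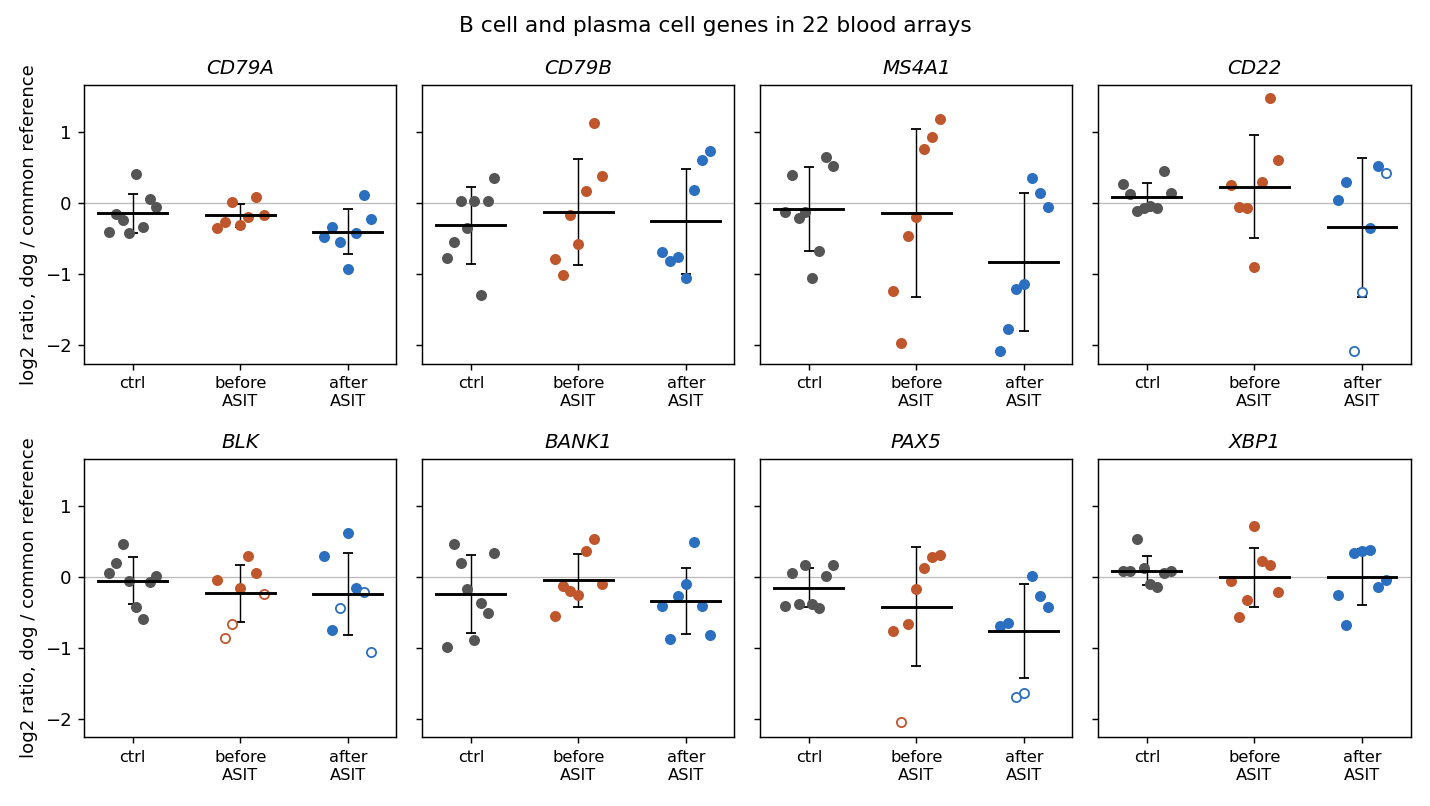
Log2 ratio of dog to common reference for the 8 genes in 8 ctrl arrays, 7 before ASIT and 7 after ASIT. Each point is an array, hollow where Cy5 was not well above background, the bar is the group mean and the whisker is ± SD. The groups overlap in each panel, and the *MS4A1* mean after ASIT lies at -0.82.

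*MS4A1* encodes CD20, a membrane protein of mature B cells that plasma cells lack. Its log2 ratio ran from -1.05 through a median of -0.12 to 0.65 in ctrl (mean -0.08 ± 0.59, SD, n = 8). Before ASIT it ran from -1.97 through -0.19 to 1.19 (mean -0.14 ± 1.19, SD, n = 7). After ASIT it ran from -2.09 through -1.15 to 0.36 (mean -0.82 ± 0.97, SD, n = 7). The cAD patients thus spread more widely than ctrl, with dogs 5, 6 and 7 high and dogs 1 and 2 low at both times, and the 3 groups overlapped.

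Within dogs, the *MS4A1* log2 ratio was lower after ASIT by -0.85 in dog 1, -0.74 in dog 3, -0.95 in dog 4, -0.41 in dog 5, -0.79 in dog 6 and -1.24 in dog 7. Dog 2, the lowest before ASIT, was the exception at 0.19. The mean change was -0.68 ± 0.46 (SD, n = 7), a 0.623-fold level, with an exact sign-flip p of 0.0312. The test without the pairs did not pass (limma adjusted p = 0.934, unadjusted p = 0.151, exact permutation p = 0.255). With the dog as a block, the limma p was 0.00409 before and 0.702 after adjustment over all probes, so the change did not pass there either.

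The mean *MS4A1* change was of like size when the ratio was formed another way, but the values of single dogs moved. After normexp and loess it was -0.67 ± 0.17 (SD), lower in 7 of 7 dogs, and the exact sign-flip p of 0.0156 is the smallest that 7 pairs can give. From Cy5 intensities without the reference it was -0.60 ± 0.35 (SD), again lower in 7 of 7 dogs, with the same exact p. Normexp and loess moved single values unevenly towards 0. Dog 2 went from -1.97 to -0.28 before ASIT and from -1.78 to -1.04 after it, which turned its change to lower. Dogs 6 and 7 went from 0.14 and -0.05 to 0.007 and 0.005 after ASIT, while dog 7 went from 1.19 to 0.94 before it. The count of 7 dogs, the like mean and the smaller SD after normexp and loess rest in part on these moves. The reference channel alone differed by -0.10 ± 0.20 (SD, n = 7) and was lower in 4 of 7 dogs. Among the 3 dogs with both arrays on the same slide, the mean change was -0.47, and in the other 4 dogs it was -0.85. The after-ASIT arrays of these 4 dogs, and no array from before ASIT, were on slide 6 with a scan day of its own, so in them a change over ASIT in any gene cannot be told apart from slide and scan.

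The *MS4A1* level of the cAD patients before ASIT differed between slides, and dog and slide cannot be told apart there. At that time, the dogs on slide 3 had -1.24 and -1.97, those on slide 4 had -0.46 and -0.19, and those on slide 5 had 0.77, 0.93 and 1.19. After ASIT, slide 6 held -1.15 in dog 4, 0.36 in dog 5, 0.14 in dog 6 and -0.05 in dog 7. Between arrays of slide 3 the difference of after and before was -0.33 (2 against 2 arrays), and between those of slide 4 it was -0.88 (1 against 2). With the slide as a fixed block the change was -0.55. The *MS4A1* difference of 6 months vs. ctrl was -0.75 ± 0.45 (SE; limma adjusted p = 0.693, exact p = 0.0928), and that of 0 vs. ctrl was -0.06 ± 0.45 (SE; limma adjusted p = 0.975, exact p = 0.896).

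*CD79A* encodes the alpha chain that carries the signal of the B cell receptor into the cell. Its log2 ratio ran from -0.42 through a median of -0.20 to 0.41 in ctrl, from -0.35 through -0.20 to 0.08 before ASIT, and from -0.93 through -0.41 to 0.12 after ASIT. The spread was narrow, and only the after-ASIT arrays of dogs 3 and 4, at -0.55 and -0.93, lay below the lowest ctrl and before-ASIT values together with dog 1 at -0.47. Within dogs the change was -0.23 ± 0.26 (SD, n = 7), lower in 6 of 7 dogs, with an exact sign-flip p of 0.0312. It did not pass over all probes (limma adjusted p = 0.934), nor with the dog as a block (limma adjusted p = 0.803, unadjusted p = 0.13).

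The size of the *CD79A* change differed with the processing, and why it did so in Cy5 alone was not tested. After normexp and loess it was -0.08 ± 0.11 (SD), lower in 5 of 7 dogs (exact p = 0.141), and from Cy5 alone -0.04 ± 0.11 (SD), lower in 4 of 7 (exact p = 0.391). Normexp and loess moved the after-ASIT values of dogs 4 to 7 from -0.93, -0.41, 0.12 and -0.22 to -0.31, -0.03, 0.004 and 0.001. The smaller change in that setting rests in part on these moves. The *CD79A* difference of 6 months vs. ctrl was -0.26 ± 0.15 (SE; limma adjusted p = 0.694), and in 0 vs. ctrl it was -0.03 ± 0.15 (SE; limma adjusted p = 0.97). In Cy5 alone the groups lay closer, with a log2 *CD79A* intensity of 7.66 ± 0.11 after ASIT (SD, n = 7) and 7.73 ± 0.22 in ctrl (SD, n = 8).

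*CD79B* encodes the beta chain that pairs with CD79A. Its log2 ratio ran from -1.29 through -0.16 to 0.36 in ctrl, from -1.01 through -0.16 to 1.14 before ASIT, and from -1.05 through -0.69 to 0.73 after ASIT. Dogs 5, 6 and 7 lay above 0 and dogs 1 to 4 below 0 at both times, and the 3 groups overlapped. Within dogs the change was -0.14 ± 0.39 (SD), lower in 3 of 7 dogs (exact p = 0.406). After normexp and loess it was -0.29 ± 0.28 (SD), lower in 6 of 7 dogs, with an exact p of 0.0312. That setting moved single values unevenly towards 0. Dog 2 before ASIT went from -1.01 to -0.07, and dogs 5, 6 and 7 after ASIT from 0.19, 0.61 and 0.73 to 0.02, 0.01 and 0.03. Dogs 2, 5 and 7 thereby turned from higher to lower, so this count and its p rest on these moves. The *CD79B* difference of 0 vs. ctrl was 0.19 ± 0.33 (SE; limma adjusted p = 0.868), and that of 6 months vs. ctrl was 0.06. Read from Cy5 alone, the difference of 0 vs. ctrl was 0.41 and passed (limma adjusted p = 0.0492), in a setting where limma called 4096 probes. The log2 Cy3 intensity of the common reference at this probe was also higher, at 7.30 ± 0.08 before ASIT (SD, n = 7) and 7.08 ± 0.11 in ctrl (SD, n = 8). The adjusted p of *CD79B* ran from 0.759 to 1.00 in the other settings.

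*CD22* encodes a receptor for sialic acid that restrains B cell receptor signalling. Its log2 ratio ran from -0.11 through 0.04 to 0.45 in ctrl, from -0.90 through 0.26 to 1.49 before ASIT, and from -2.08 through 0.05 to 0.52 after ASIT. The lowest after-ASIT values, -2.08 in dog 3 and -1.25 in dog 4, came from arrays where the probe was not well above background. After ASIT, both channels were well above background in dogs 1 and 2 alone, where the change was -0.21 and 0.35. Over all dogs the change was -0.57 ± 0.75 (SD), lower in 6 of 7 (exact p = 0.0781), a count that rests on ratios with at least 1 channel near background in dogs 3 to 7. Without the after-ASIT array of dog 3, the difference of 6 months vs. 0 was -0.28 and that of 6 months vs. ctrl was -0.14. After normexp and loess it was -0.12 ± 0.20 (SD), lower in 5 of 7 dogs (exact p = 0.141). It was 0.07 between the arrays of slide 3 and -1.59 between those of slide 4. The *CD22* difference of 6 months vs. ctrl was -0.43 ± 0.34 (SE; limma adjusted p = 0.76), and in 0 vs. ctrl it was 0.14 ± 0.34 (SE; limma adjusted p = 0.906). These groups lay closer after normexp and loess, where *CD22* ran from -0.08 to 0.16 in ctrl and from -0.17 to 0.10 after ASIT. That setting moved the after-ASIT value of dog 3 from -2.08 to -0.17. Those of dogs 5, 6 and 7 went from -0.35, 0.52 and 0.43 to 0.003, 0.002 and 0.001. The closer groups and the smaller change after normexp and loess rest in part on these moves.

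**Figure D2:**
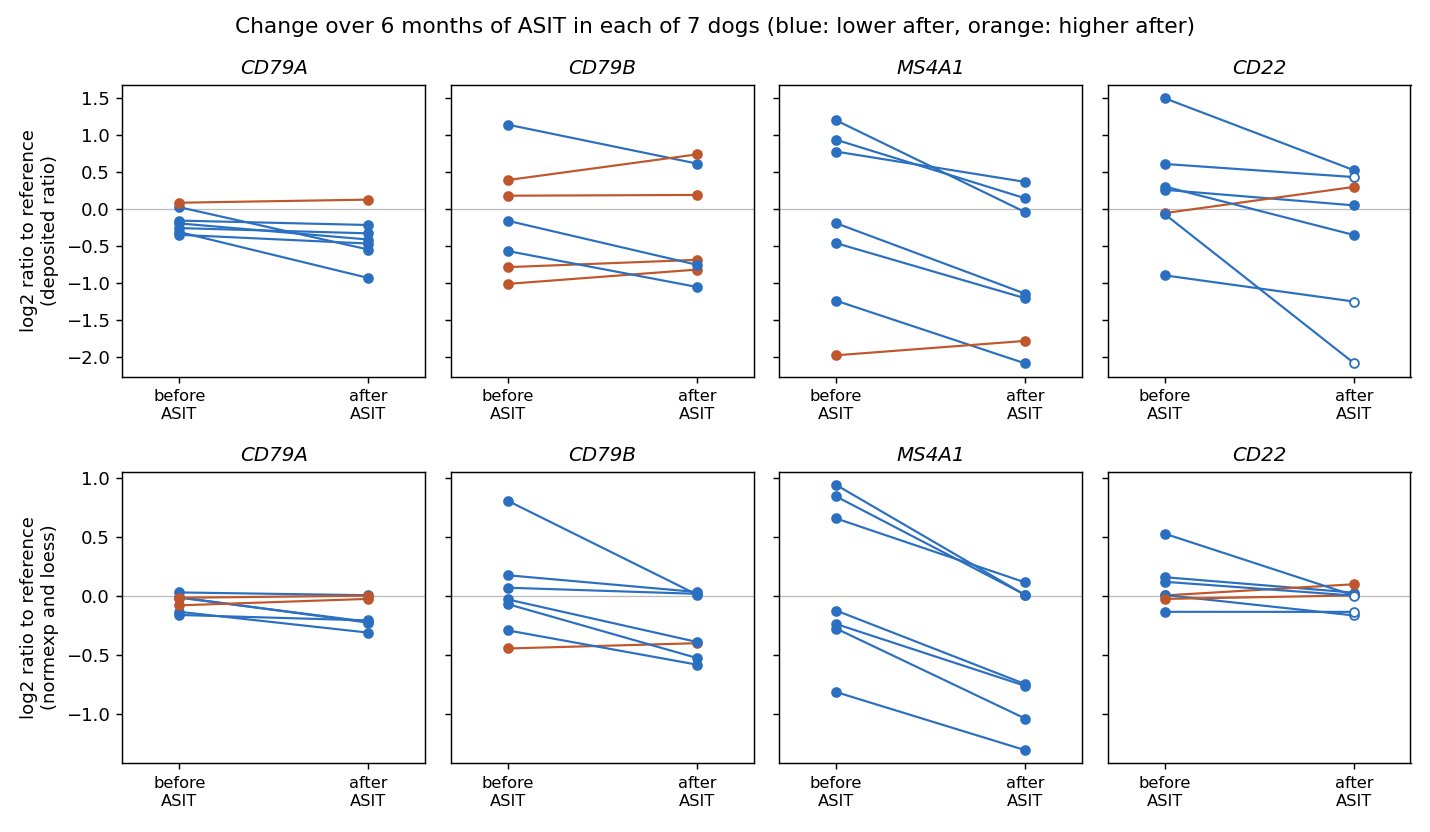
Log2 ratio of the 4 surface genes before and after ASIT in 7 dogs, from the deposited ratio (top) and after normexp and loess (bottom). Each line is a dog, blue where lower and orange where higher after ASIT, and hollow points were not well above background. *MS4A1* was lower in 6 of 7 dogs in the top panel and in 7 of 7 in the bottom panel. The dog that turned is dog 2, whose value before ASIT was -1.97 in the top and -0.28 in the bottom panel.

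Among the signalling genes, *BLK* encodes a Src-family kinase of B cells and *BANK1* an adaptor that B cell receptor signalling phosphorylates. The *BLK* log2 ratio ran from -0.59 through -0.02 to 0.47 in ctrl, from -0.86 through -0.16 to 0.30 before ASIT, and from -1.06 through -0.20 to 0.62 after ASIT. Within dogs it differed by -0.01 ± 0.54 (SD), lower in 3 of 7 dogs (exact p = 0.953). The *BANK1* log2 ratio ran from -0.98 through -0.27 to 0.47 in ctrl, from -0.55 through -0.13 to 0.53 before ASIT, and from -0.88 through -0.40 to 0.50 after ASIT. Within dogs *BANK1* differed by -0.29 ± 0.49 (SD), lower in 4 of 7 dogs (exact p = 0.234), and the change was -0.93 in dog 6, -0.75 in dog 2 and -0.72 in dog 7. Its other probe gave -0.32 ± 0.70 (SD), with -1.31 in dog 6, -1.36 in dog 7 and 0.02 in dog 2. For the probe used, the change was -0.15 ± 0.22 (SD) after normexp and loess, lower in 5 of 7 dogs (exact p = 0.141). That setting moved the after-ASIT values of dogs 6 and 7 from -0.40 and -0.82 to -0.009 and -0.05. Over the 22 arrays, after group means were removed, the pair of *BANK1* probes correlated by r = 0.895.

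*PAX5* encodes the transcription factor that commits a cell to the B lineage. Its log2 ratio ran from -0.43 through -0.19 to 0.17 in ctrl, from -2.05 through -0.17 to 0.30 before ASIT, and from -1.70 through -0.65 to 0.01 after ASIT. The values of -2.05 before ASIT (dog 2) and of -1.70 and -1.63 after ASIT (dogs 3 and 4) came from arrays without signal well above background. The *PAX5* difference of 6 months vs. ctrl was -0.61 ± 0.30 (SE; limma unadjusted p = 0.0556, adjusted p = 0.681, exact p = 0.0225). It was -0.03 after normexp and loess and -0.08 from Cy5 alone. Within dogs *PAX5* differed by -0.35 ± 0.93 (SD), lower in 5 of 7 dogs (exact p = 0.359). The change was -0.08 ± 0.12 (SD) after normexp and loess (exact p = 0.141). It was -0.13 ± 0.16 (SD) in Cy5 alone (exact p = 0.0938), with 6 of 7 dogs lower in each of these settings. Normexp and loess moved dog 2 before ASIT from -2.05 to -0.04, which turned its change to lower. Dogs 3 and 4 after ASIT went from -1.70 and -1.63 to -0.25 and -0.34. The smaller *PAX5* differences in that setting rest in part on these moves. Leaving out 1 array moved the difference of 6 months vs. 0 to between -0.62 (without dog 2 before ASIT) and -0.19 (without dog 3 after ASIT). The *PAX5* difference of 0 vs. ctrl was -0.27 ± 0.30 (SE; limma adjusted p = 0.79).

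*POU2AF1* encodes a coactivator that B cells use with octamer-binding factors. A probe described as partly like the human POU domain class 2, associating factor 1, with a transcript identifier for a gene name, was added after the annotation had been seen. Its Cy5 passed the background threshold on each of the 22 arrays, but Cy3 did not on the after-ASIT arrays of dogs 5 and 7. Its mean log2 ratio was -0.05 ± 0.33 in ctrl (SD, n = 8), 0.15 ± 0.41 before ASIT (SD, n = 7) and 0.28 ± 0.59 after ASIT (SD, n = 7). Within dogs it differed by 0.13 ± 0.66 (SD), higher in 4 of 7 dogs (exact p = 0.641), and it is in none of the counts above.

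*XBP1* encodes the transcription factor of the unfolded protein response that plasma cells require for secretion, and other blood cells use it as well. Its log2 ratio ran from -0.15 through 0.08 to 0.54 in ctrl, from -0.57 through -0.06 to 0.72 before ASIT, and from -0.68 through -0.05 to 0.38 after ASIT. Within dogs it differed by 0.00 ± 0.36 (SD), lower in 4 of 7 dogs (exact p = 0.984). The groups overlapped, and in 0 vs. ctrl the *XBP1* difference was -0.10 ± 0.19 (SE; limma adjusted p = 0.885). With each array left out in turn, this difference ran from -0.22 to -0.004.

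The 4 *XBP1* probes lie on the minus strand of chromosome 26 and share at most 8 bases in a row. They are shown because the probe used for the gene, the nearest to the 3′ end at chr26:22162675-22162733, departed from the others. The changes of the other probes were -0.13 at chr26:22165745-22165804, -0.21 at chr26:22163792-22164168 and -0.17 at chr26:22163744-22163803. These 3 probes correlated with each other by r = 0.932 to 0.98 over the 22 arrays, and with the probe used by r = 0.671 to 0.725. In dog 2 the probe used differed by -0.11, against -0.84, -1.29 and -1.37 in the others in the order given. None of the 4 had an unadjusted p under 0.05 in any comparison.
probe used: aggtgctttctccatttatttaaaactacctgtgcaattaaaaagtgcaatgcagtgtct
-0.13: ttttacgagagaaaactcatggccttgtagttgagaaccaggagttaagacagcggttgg
-0.21: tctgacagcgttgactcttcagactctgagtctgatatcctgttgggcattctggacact
-0.17: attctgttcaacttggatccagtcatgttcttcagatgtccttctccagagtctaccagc

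Correlations among the genes differed widely. Over the 22 arrays, after group means were removed, *MS4A1* correlated by r = 0.777 with *PAX5* and by r = 0.759 with *CD79B*, but by r = 0.357 with *CD22* and r = 0.267 with *CD79A*. For *CD79A* the values were r = 0.674 with *CD79B*, 0.529 with *CD22* and 0.383 with *PAX5*, and r = -0.366 with *BLK* and -0.121 with *BANK1*. For *XBP1* the values ran from r = -0.445 with *CD22* and r = -0.31 with *CD79A* through r = 0.41 with *MS4A1* to r = 0.564 with *BLK*. Arrays of a dog and of a slide are among the points, so these values are descriptions. The named genes most like *MS4A1* by the same measure were *BAG2* (r = 0.955), *B4GALT6* (r = 0.889), *NDFIP1* (r = 0.881), *RRAS2* (r = 0.878), *THSD1* (r = 0.874) and *EBF1* (r = 0.871), the last of them an early B cell transcription factor. Those most like *CD79A* were *FCRL2* (r = 0.884), a receptor of the Fc receptor-like family on B cells, *HSPBP1*, *TBL3*, *MMP2*, *LTA* and *PAFAH1B3*.

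Wider lists of the lineage held 109 genes, of which 81 had a probe and 79 were tested. limma called 0 of the 79 in each comparison, at a smallest adjusted p of 0.176. An unadjusted p under 0.05 was found for 9 of 79 in 0 vs. ctrl (1 higher and 8 lower, 11.4%), for 9 in 6 months vs. ctrl (1 higher and 8 lower, 11.4%), and for 4 in 6 months vs. 0 (1 higher and 3 lower, 5.06%). Over all probes these shares were 11.7%, 7.2% and 5.96%. Read from Cy5 alone, limma called 5 of the 79 in 0 vs. ctrl, beside 4096 of all 38287 tested probes. It called 2 of the 79 in 6 months vs. ctrl, where it also called more probes in all than with the deposited ratio. Named after these values were seen, they were *CCR6*, *PIK3AP1*, *BCL11A*, *CCR10* and *IL4* in the former and *BTLA* and *FOXP1* in the latter.

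Of the 13 tested surface and co-receptor genes, 12 were lower after than before ASIT, with a median log2 difference of -0.18, while 48.6% of all tested probes were lower. The count was 11 of 13 after normexp and loess, 7 of 13 with the slide as a fixed block and 6 of 13 in dogs 1 to 3 alone, where the median was 0.001. *BTLA*, an inhibitory receptor, differed by -0.83 ± 0.35 (SE; limma adjusted p = 0.726), lower in 6 of 7 dogs (exact sign-flip p = 0.0625). *CD72*, an inhibitory co-receptor, differed by -0.52 ± 0.23 (SE; limma adjusted p = 0.737), also lower in 6 of 7 dogs (exact sign-flip p = 0.0781). Of all tested probes, 6.84% were lower in at least 6 of 7 dogs. *CD38*, which plasma cells carry at high level, differed by -0.57 ± 0.27 in 6 months vs. ctrl (SE; limma adjusted p = 0.681) and was lower after ASIT in 7 of 7 dogs (exact sign-flip p = 0.0156). Of all tested probes, 5.46% had an exact sign-flip p under 0.05. Without the pairs, the unadjusted limma p of *CD38* in 6 months vs. 0 was not under 0.05. *CCR6*, a chemokine receptor, was higher by 0.62 ± 0.28 in 0 vs. ctrl (SE; limma adjusted p = 0.365) and by 0.62 in 6 months vs. ctrl, with the probe well above background on 7 of 8, 4 of 7 and 6 of 7 arrays.

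Of the 19 signalling genes, 15 were lower before ASIT than in ctrl, 15 after ASIT than in ctrl and 10 after than before ASIT. Over all tested probes, 52.4%, 56.4% and 48.6% were lower in these comparisons, shares that stand beside the lists below as well. The medians of the signalling genes were -0.15, -0.12 and -0.02. That of 0 vs. ctrl turned to 0.05 in Cy5 alone, where 7 of 19 were lower. That of 6 months vs. 0 turned to 0.06 after normexp and loess. *BTK*, the kinase downstream of the receptor, was 0.47 ± 0.21 higher in 6 months vs. 0 (SE; limma adjusted p = 0.78) and higher in 6 of 7 dogs (exact p = 0.0312). With the dog as a block, 0 of the 19 signalling genes, *BTK* among them, had an unadjusted limma p under 0.05. *DAPP1*, an adaptor, differed by -0.43 in 0 vs. ctrl, and *RASGRP3*, which passes the signal on, by -0.50 in 6 months vs. ctrl, where its probe was well above background on 6 of 7 arrays after ASIT. Neither passed adjustment.

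Of the 15 transcription factors, 12 were lower before ASIT than in ctrl, 12 after ASIT than in ctrl and 10 after than before ASIT, with medians of -0.12, -0.27 and -0.05, and that of 0 vs. ctrl turned to 0.02 in Cy5 alone. *IKZF3*, a factor of mature lymphocytes, differed by -0.72 ± 0.27 in 6 months vs. ctrl (SE; limma adjusted p = 0.68) and by -0.59 in 6 months vs. 0, and *ID3* by -0.41 in 6 months vs. ctrl. *PRDM1*, which drives plasma cell formation, and *POU2F1*, an octamer-binding factor, differed by -0.37 and -0.32 in 0 vs. ctrl.

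In 0 vs. ctrl, 15 of the 15 tested plasma cell and immunoglobulin genes were lower, with a median of -0.20, while 52.4% of all tested probes were lower. The count was 14 of 15 after normexp and loess and 13 of 15 in the Cy5 channel alone. *SSR4* had the brightest probe of this list. Whether the 15 genes vary independently, or are particular to plasma cells in blood, was not tested. The count for 6 months vs. ctrl was 12 of 15 lower, with a median of -0.17. Over ASIT, 11 of 15 were higher, with a median of 0.14, but 6 of 15 in the Cy5 channel alone and 4 of 15 with the slide as a fixed block, so this direction turned with the setting.

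Of these genes, 3 had an unadjusted p under 0.05 in 0 vs. ctrl. *TXNDC5*, a disulfide isomerase abundant in plasma cells, had a mean log2 ratio of -1.02 ± 1.07 before ASIT (SD, n = 7) and 0.30 ± 0.79 in ctrl (SD, n = 8), a difference of -1.32 ± 0.45 (SE; limma adjusted p = 0.219, exact p = 0.0172). *IGJ*, the joining chain of secreted antibody, differed by -1.19 ± 0.51 (SE; limma adjusted p = 0.347, exact p = 0.0639). *DERL3*, which clears misfolded proteins and was named after its values were seen, differed by -0.74 ± 0.22 (SE; limma adjusted p = 0.178, exact p = 0.011). None passed adjustment.

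Of the 13 partners of *XBP1* in the unfolded protein response, 10 were lower before ASIT than in ctrl, 11 after ASIT than in ctrl and 5 after than before ASIT, with medians of -0.15, -0.09 and 0.04. Cy5 alone turned that of 0 vs. ctrl to 0.03 and that of 6 months vs. 0 to -0.09. *EDEM1*, which sends misfolded proteins to degradation, differed by -0.63 ± 0.19 in 0 vs. ctrl (SE; limma adjusted p = 0.176, exact p = 0.00373), the smallest adjusted p of the wider lists, and by -0.40 in 6 months vs. ctrl. Of the 4 tested ligands that sustain B cells, *IL4* differed by -0.51 ± 0.19 in 0 vs. ctrl (SE; limma adjusted p = 0.244), and the medians of the 4 were -0.11, -0.27 and -0.07 in the 3 comparisons. The *IL4* probe was the brightest of these ligands, whose summed Cy5 intensity in ctrl ran from 40988 through 57570 to 69725. That of the 9 tested T cell genes in ctrl ran from 7557 through 10177 to 14913. Whether the *IL4* probe reads *IL4* alone was not tested.

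Markers of other blood cells were also read. Before ASIT, 5 of 5 tested platelet genes were lower than in ctrl, with a median log2 difference of -0.53 and 1 gene under an unadjusted p of 0.05, and 6 of 7 monocyte genes were lower, with a median of -0.10. Higher than in ctrl were 5 of 5 erythroid genes, with a median of 0.49, 7 of 9 T cell genes, with 0.14, 3 of 4 cytotoxic genes, with 0.17, and 4 of 5 eosinophil and basophil genes, with 0.17. The summed Cy5 intensity of the platelet genes in ctrl ran from 7984 through 19260 to 29408. That of the erythroid genes ran from 14875 through 48923 to 130657 in ctrl and from 24658 through 94907 to 169010 before ASIT. Their part in the lower plasma cell genes was not tested.

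After ASIT, 5 of 5 erythroid genes were higher than in ctrl, with a median of 0.93 and a summed Cy5 intensity from 39991 through 103282 to 138389. Of the eosinophil and basophil genes 4 of 5 were higher, with a median of 0.52 and 1 gene under an unadjusted p of 0.05. Lower than in ctrl were 7 of 9 T cell genes, with -0.23, 5 of 5 platelet genes, with -0.12, and 4 of 4 cytotoxic genes, with -0.25 and 1 gene under an unadjusted p of 0.05, though 2 of 4 after normexp and loess. The neutrophil median was 0.08, turning to -0.03 after normexp and loess and to -0.01 in Cy5 alone, and the monocyte one was -0.004, turning to 0.07 after normexp and loess and to 0.02 in the series matrix. Of the 7 monocyte genes, 1 was higher at an unadjusted p under 0.05. The part of these cell types in the lower B cell genes of 6 months vs. ctrl was not tested.

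Over ASIT, of 9 tested T cell genes, 7 were lower in 6 months vs. 0, with a median of -0.30, and the median per array was lower after ASIT in 7 of 7 dogs. Their summed Cy5 intensity ran from 6829 through a median of 11780 to 14648 before ASIT and from 8086 through 9097 to 11637 after it, with *LCK* the brightest. Of 4 cytotoxic genes, 4 were lower, with a median of -0.39, which turned to 0.09 with the slide as a fixed block, and the median per array was lower in 5 of 7 dogs. Their summed intensity ran from 1001 through 1426 to 2086 before and from 983 through 1186 to 1890 after ASIT, with *GZMK* the brightest.

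Of 7 monocyte genes, 7 were higher after ASIT, with a median of 0.20, and the median per array was higher in 5 of 7 dogs. Their summed intensity ran from 17914 through 25241 to 37330 before and from 24886 through 35714 to 41537 after ASIT, with *CD68* the brightest. Of 5 platelet genes, 5 were higher, with a median of 0.36, which turned to -0.21 in dogs 1 to 3 alone, and the median per array was higher in 6 of 7 dogs. Their summed intensity ran from 8684 through 15148 to 19109 before and from 9987 through 15104 to 23874 after ASIT, with *PPBP* the brightest. The medians of the neutrophil, erythroid and eosinophil and basophil genes were 0.09, 0.29 and 0.03, the neutrophil one turning to -0.01 after normexp and loess and the erythroid one to -0.03 in dogs 1 to 3 alone, with *S100A8*, *ALAS2* and *MS4A2* the brightest. None of these genes with a probe was below the filter, and over ASIT limma called 0 of them at an adjusted p under 0.05, with 1 T cell gene, *CD2*, under an unadjusted 0.05. Their part in the change of the B cell genes was not tested.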

How the data were processed

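The scanner output of 22 Agilent canine arrays was used. The authors deposited for each spot raw and processed intensity, background-subtracted and Lowess-normalized by Feature Extraction, and the log10 ratio of the Cy5 to the Cy3 signal. The submitters' notes name version 10.7.3.1, and the file headers name 10.10.1.1. The authors also deposited a series matrix of log10 ratios, equal to the scanner files for the 14 cAD arrays but not for ctrl (r = 0.711 to 0.844).

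These ratios were put on a log2 scale. After removal of control spots and of 208 spots marked as outliers, the spots of a probe were averaged, for 43603 probes. The signal filter, Cy5 well above background on 7 arrays or more, kept 38287 of them. A probe of several spots counted as such where 0.5 or more of its spots carried the mark. R 4.3.3 with limma 3.58.1 fitted the 3 groups together and adjusted p by Benjamini-Hochberg over the tested probes. Single genes were tested by 2-sided exact permutation (6435 splits of 8 against 7, 3432 of 7 against 7) and paired changes by 128 sign flips, in Python 3.11.15 (numpy 2.4.6, pandas 2.3.3, matplotlib 3.10.9). Precision is limited by how many arrays there are. The fits were checked on simulated data with known changes, and the exact tests against scipy.

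Each dog's pair of arrays comes from the source and health condition in the sample labels, which number the dogs 1 to 7. The titles disagree, since they call each of the 7 samples after therapy patient 1, and the paired changes rest on the former. Deviations from the group means correlated within pairs by r = 0.469, 0.555, 0.165, 0.248, 0.334, -0.04 and 0.247 for dogs 1 to 7, and for dogs 3, 5 and 6 the after-ASIT array of another dog correlated more. The main comparison has no block, since the methods name none.

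All members were named, and from each wider list and comparison at most 2 genes with the largest rise and fall among those with an unadjusted p under 0.05. Lists of B cell surface, signalling, transcription factor, plasma cell, unfolded protein response and ligand genes, and of T cell, cytotoxic, monocyte, neutrophil, erythroid, platelet, eosinophil and basophil genes were read. The members and lists were chosen with earlier results of these data known. Positions are those of the files, and no annotation of that build was used to place probes in exons. Alternatives were normexp (offset 50) with loess, the series matrix, the ratio of processed signals, Cy5 alone, other filters, the mean of a gene's probes, the methods' one-way test, blocks for slide, scan day or dog, and leaving out each array.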

Additional observations from a re-analysis of the deposited data

Results flagged for a closer look

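In ctrl, the *XBP1* log2 ratio of dog 3, at 0.54, stood apart from the other 7 control dogs, whose values ended at 0.12. It was the single such case among 32 series of values examined, the 8 genes in 3 groups and their changes over ASIT. Chance sets a sample apart in about 1 of 20 groups.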

How the results depend on the processing

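None of the 8 genes was called in any alternative, except that in 0 vs. ctrl the Cy5 channel alone called 1 (*CD79B*), the 1 under an unadjusted 0.05. Of the 79 wider genes, Cy5 alone called 5 in 0 vs. ctrl, beside 4096 of 38287 tested probes, and 2 in 6 months vs. ctrl. The other alternatives called 0 of the 79. That unadjusted count, 0 with the deposited ratio, was in 6 months vs. ctrl 1 in the series matrix (*PAX5*) and 2 in Cy5 alone (*CD79B*, *CD22*), and in 6 months vs. 0 it was 1 (*MS4A1*) after normexp and loess, in Cy5 alone and in the paired fit with the replicate block. The block changed no other count of members.

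Several small differences changed sign. In 0 vs. ctrl, normexp and loess gave *MS4A1* 0.18, *CD79A* 0.0229, *PAX5* 0.0521 and *BLK* 0.0029, the series matrix gave *CD79A* 0.0293, and Cy5 alone gave *MS4A1* 0.0278, *CD22* -0.14, *PAX5* 0.0421, *BLK* 0.0348 and *XBP1* 0.0013. For 6 months vs. ctrl, normexp and loess gave *CD79B* -0.0723 and *BANK1* 0.0263, and Cy5 alone gave *BANK1* 0.0445. For 6 months vs. 0, *XBP1* was -0.11 in Cy5 alone, -0.13 as the mean of its probes, -0.0107 with the slide as a random and -0.0332 as a fixed block. *BLK* was 0.013 and 0.13 with these blocks. Dogs 1 to 3 alone, with the dog as a block, gave *BLK* 0.23 and *PAX5* 0.14. The cause was not tested.

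With each array left out in turn, the called count stayed 0, and the unadjusted count ran from 0 to 0 in 0 vs. ctrl and from 0 to 2 in 6 months vs. ctrl and 6 months vs. 0. For 6 months vs. ctrl the count of 2 came without dog 5 or dog 6 after ASIT, and 1 without dog 7 after or dog 2 before ASIT. For 6 months vs. 0 the count of 2 came without dog 2, and 1 without dog 4, before ASIT. Without the after-ASIT array of dog 3, *CD22* was -0.14 in 6 months vs. ctrl and -0.28 in 6 months vs. 0. Without that of dog 4, *CD79A* was -0.17 and -0.14. Differences that changed sign ran in 0 vs. ctrl from -0.29 to 0.24 (*MS4A1*), -0.0672 to 0.0532 (*CD79A*), -0.0145 to 0.34 (*CD79B*), -0.0663 to 0.33 (*CD22*) and -0.39 to 0.0052 (*PAX5*), in 6 months vs. ctrl from -0.11 to 0.19 (*CD79B*) and -0.16 to 0.0158 (*XBP1*), and in 6 months vs. 0 from -0.30 to 0.0723 (*CD79B*), -0.15 to 0.13 (*BLK*) and -0.0918 to 0.12 (*XBP1*).

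The strict filter left out *CD22*, *PAX5* and *BLK*. Requiring the flag on every spot of a probe was chosen after seeing the data and left all counts and values of the members as they were. Signal over background limits *CD22*, *PAX5* and *BLK*.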

Other observations

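Immunoglobulin transcripts were picked by the probe description, after the annotation had been seen. Of 57 such probes, most of them for variable regions, 52 were tested, and they can share sequence, so they are not independent. limma called 0 of the 52 in each comparison. From Cy5 alone it called 3 in 0 vs. ctrl, beside 4096 of all 38287 tested probes, and 1 in 6 months vs. ctrl. In 0 vs. ctrl, 35 of 52 were lower, with a median log2 difference of -0.25, and 16 had an unadjusted p under 0.05 (3 higher and 13 lower). Of all tested probes, 52.4% were lower there and 11.7% had an unadjusted p under 0.05. Compared with ctrl at 6 months, 38 of 52 were lower, with a median of -0.19, and 4 had an unadjusted p under 0.05, beside 56.4% and 7.2% of all probes.

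Over ASIT, 36 of the 52 immunoglobulin probes were higher, with a median of 0.21, and 5 had an unadjusted p under 0.05, beside 51.4% and 5.96% of all probes. The median per array was higher after ASIT in 6 of 7 dogs, from 0.02 in dog 7 to 0.31 in dog 5, and lower by -0.23 in dog 4. It was exactly 0 in dog 5 before and in dog 7 after ASIT. On these arrays 13.0% and 23.4% of spots had a log2 ratio of exactly 0, against 1.22% to 3.35% in ctrl, so both changes rest in part on such spots. With the slide as a fixed block, 33 of 52 were lower and the median was -0.09, so the direction over ASIT turned with that setting.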
